A study of Mus musculus with 9 samples.

Results

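Intraepithelial lymphocytes are T cells that sit between the epithelial cells of the gut, and 10 genes that mark these cells or arm them were followed in the jejunum of irradiated mice. The genes were Cd3e, Cd3g, Cd8a, Gzma, Gzmb, Cd7, Itgae, Trdc, Ccl5 and Klrd1, taken by Ensembl identifier out of the 31685 genes in the table of the series, and all 10 were found. RNA was sequenced from the jejunum of 9 wild-type C57BL/6J mice, 3 in each of 3 groups, and the study's methods give male mice of 6 to 8 weeks. The control mice were untreated. The TAI mice received total abdominal irradiation, a single X-ray dose of 12 Gy to the shielded animal's abdomen at 75 cGy/min, and PBS according to the methods. The TAI/IVIg mice received the same 12 Gy and 500 mg/kg of intravenous immunoglobulin (IVIg), a pooled human antibody preparation, within 1 h, with the injection repeated every 3 days. The labels place the irradiated tissue at day 3 and every library in a single batch. They call the tissue epithelial, whereas the methods describe frozen jejunal tissue, and the smooth muscle and stroma markers summed to between 103 and 654 FPKM per mouse, so that the samples held more than epithelium.

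FPKM is the number of fragments of a gene divided by its exon length and by the total of the library. The length counts all annotated exons, 4080 bases for Cd3e and 960 for Ccl5. Levels set side by side between genes thus depend in part on the annotation. The totals behind the values ran from 16284531 to 18244739 reads per mouse. A gene was tested where at least 3 mice reached 1 FPKM, which 13056 genes did. Of the 10 lymphocyte genes 8 were tested, and Cd3e and Trdc were below the filter. Fold changes are given on the log2(FPKM + 1) scale, which understates the change of low genes, and "adjusted p" is the Benjamini-Hochberg value of limma over all 13056 genes. Bulk RNA cannot tell fewer cells of a type from less RNA per cell. The labels do not say more of the replicates than their numbers, so p-values measure the spread between these mice.

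T cells recognise antigen through a receptor whose signal passes through the CD3 chains, and CD8 is the coreceptor of the cytotoxic lineage. The epithelium of the small bowel is rich in CD8-bearing cells with either an alpha-beta or a gamma-delta receptor, held in place by the integrin CD103 binding to E-cadherin. Many of them store granzymes, serine proteases released with perforin into a target cell, and carry receptors shared with natural killer (NK) cells. Enterocytes support them with interleukin 15 and draw them with the chemokine CCL25.

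The promoters of 4 of the genes are printed because they fall into pairs that moved together between mice, Gzma with Gzmb and Cd3e with Cd3g. Of the 10 genes, 5 had an entry in the RefSeq promoter table of build GRCm38.p6 (these 4 and Cd8a), and each stretch holds the bases directly before the RefSeq transcription start, 5′ to 3′ on the strand of the gene. For Cd3e the last 16 bases were left off because they lie in an annotated exon. Capitals mark matches, on either strand, to 5 short motifs: TGTGGT (RUNX), GGTGTG (T-box), TGANTCA (AP-1), TGACG (the half-site of a cyclic AMP response element) and the interferon-stimulated response element, read as GAAA, 2 bases of any kind and GAAA.
Gzma, chr13:113100982-113101231, minus strand: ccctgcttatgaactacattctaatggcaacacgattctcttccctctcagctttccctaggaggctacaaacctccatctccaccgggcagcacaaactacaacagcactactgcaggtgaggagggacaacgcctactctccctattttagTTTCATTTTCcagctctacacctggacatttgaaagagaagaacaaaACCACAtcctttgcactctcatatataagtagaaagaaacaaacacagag
Gzmb, chr14:56262335-56262584, minus strand: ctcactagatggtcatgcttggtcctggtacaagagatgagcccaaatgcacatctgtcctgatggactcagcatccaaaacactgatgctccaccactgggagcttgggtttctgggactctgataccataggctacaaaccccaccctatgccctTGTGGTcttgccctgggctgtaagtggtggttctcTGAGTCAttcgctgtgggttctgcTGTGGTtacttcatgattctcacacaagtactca
Cd3e, chr9:45009628-45009861, minus strand: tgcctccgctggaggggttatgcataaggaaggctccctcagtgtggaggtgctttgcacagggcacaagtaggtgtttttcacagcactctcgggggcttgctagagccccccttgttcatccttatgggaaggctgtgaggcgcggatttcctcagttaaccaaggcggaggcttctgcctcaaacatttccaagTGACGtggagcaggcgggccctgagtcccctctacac
Cd3g, chr9:44980432-44980681, minus strand: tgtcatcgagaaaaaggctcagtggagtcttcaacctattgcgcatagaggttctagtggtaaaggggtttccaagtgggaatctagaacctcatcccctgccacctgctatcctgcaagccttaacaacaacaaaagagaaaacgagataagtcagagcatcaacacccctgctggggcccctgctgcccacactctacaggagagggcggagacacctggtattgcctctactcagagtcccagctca

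The Gzma stretch held 1 RUNX match, 50 bases before the start, and 1 interferon-type match. The Gzmb stretch held 2 RUNX matches, at 93 and 34 bases before the start, with an AP-1 match between them. Cd3e held only the TGACG letters, and none of the 5 motifs was in the Cd3g window. The Cd8a window, which is not printed, also held none, though Cd8a moved with Cd3e and Cd3g as well (r = 0.91 for each over the 9 mice). Among all 32851 promoters of the table, 14.0% held the RUNX letters, 16.3% the T-box, 6.75% the AP-1, 17.8% the TGACG and 2.98% the interferon-type letters in their 250 bases before the start. A match describes letters, and no binding was measured.

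Control mouse 3 stood apart before any comparison was made. The 10 B cell markers summed to 521 FPKM in it, against 69.0 and 4.77 FPKM in the other control mice. They reached 95.2 FPKM in TAI mouse 3 and 101 FPKM in TAI/IVIg mouse 2, and lay between 1.87 and 3.80 FPKM in the other 4 irradiated mice. Each group thus had a single mouse above its others. The pan-leukocyte markers followed, from 23.1 to 497 FPKM. The 10 epithelial markers summed to between 6389.5 and 9266 FPKM. Of them 1 was called higher (Cldn7) and 4 lower (Cdx1, Cdx2, Krt8 and Krt19) in TAI against control. In TAI/IVIg 3 were called higher (Cldn7, Epcam and Krt20) and 4 lower (Cdx1, Krt8, Krt18 and Krt19). The level of the smooth muscle and stroma markers was lowest in TAI/IVIg mouse 3, at 103 FPKM against 257.7 to 654 FPKM elsewhere. Of these 10 markers 3 were called lower in TAI/IVIg against control (Col1a2, Dcn and Pdgfra), and 1 with library medians set equal. In TAI/IVIg against TAI 0 were called, and all 10 were lower at an unadjusted p under 0.05, with a median log2 fold change of -1.06. The part of these shifts in the lymphocyte values was not tested. The plasma cell markers had 1 lower gene of 7 tested in TAI (Derl3) and 2 in TAI/IVIg (Derl3 and Sdc1), and the neutrophil markers 1 higher of 3 in TAI (S100a9) and 2 lower in TAI/IVIg (Ly6g and Csf3r), where 0 were lower with library medians set equal or without control mouse 3. None of the 10 B cell or 10 pan-leukocyte markers was called by limma with all mice, with at most 4 of a list at an unadjusted p under 0.05 and 0 called by voom. Without the mouse of highest B cell markers in each group, 3 of the 10 pan-leukocyte markers were called lower in TAI and 9 in TAI/IVIg against control. Of all 13056 tested genes 1188 and 3697 were called lower in that setting, which was chosen after seeing the data. None of the 8 mast cell markers reached the filter, so the granzyme and receptor values below stand beside a summed mast cell level of at most 3.44 FPKM. The middle of the libraries differed as well. Over all tested genes the middle fold change on the log2 scale was -0.23 in TAI against control, -0.39 in TAI/IVIg against control and -0.13 in TAI/IVIg against TAI, and became 0.05, 0.10 and 0.08 when the library medians were set equal.

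Of the 8 lymphocyte genes tested, 2 were lower and 0 higher in TAI than in control at an adjusted p under 0.05, Ccl5 and Klrd1. The background was 26.1% of all tested genes called lower and 8.81% called higher in this comparison, so 2 of 8 is a share near the background. In TAI/IVIg against control 1 of 8 was lower, Ccl5, where 37.4% of all tested genes were called lower and 9.06% higher. In TAI/IVIg against TAI none of the 8 was called, none had an unadjusted p under 0.05, and limma voom on the recovered reads also called 0. In that comparison 0.0% of all tested genes were called, and 12.9% had an unadjusted p under 0.05. The median log2 fold change of the 8 genes was -0.48, -0.37 and 0.12 in the 3 comparisons, beside -0.23, -0.39 and -0.13 for all tested genes. With library medians set equal the 8 genes were at -0.19, 0.12 and 0.33, beside 0.05, 0.10 and 0.08. In that scaling 1823 genes were called lower and 2159 higher in TAI against control, where 3411 and 1150 were called otherwise, and 1894 and 2880 in TAI/IVIg against control, where 4880 and 1183 were called otherwise. The plot of each mouse's level shows the 10 genes one by one.

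**Figure D1:**
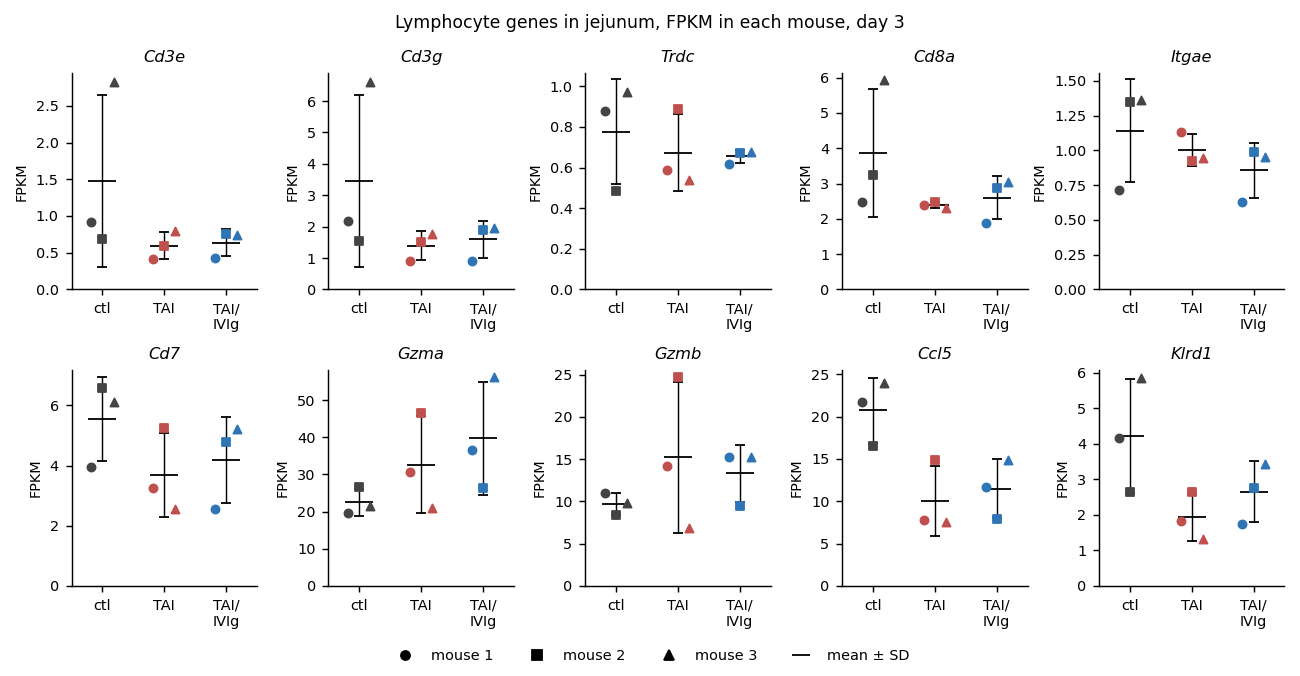
FPKM of the 10 lymphocyte genes (y axes, linear from 0, a scale per gene) in control (ctl), TAI and TAI/IVIg mice, with a point per mouse and the mean ± SD of 3. Ccl5 lay above both irradiated groups in all 3 control mice, Cd3e and Cd3g were high in control mouse 3, and Gzma and Gzmb spread widely after irradiation.

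The receptor genes were highest in a single mouse, control mouse 3. Cd3e (ENSMUSG00000032093, chr9:44998740-45009627 in GRCm38, minus strand), the epsilon chain of CD3, was at 0.917, 0.693 and 2.82 FPKM in control mice 1 to 3. It was at 0.415, 0.587 and 0.793 FPKM in the TAI mice and at 0.422, 0.750 and 0.745 FPKM in the TAI/IVIg mice. The control values were high in mouse 3 and the other 2 overlapped the irradiated mice. The reads behind them ran from 29 to 199. Cd3e reached 1 FPKM in 1 mouse, and with a filter that admits it (a mean of at least 0.5 FPKM) its log2 fold change was -0.54 (SE 0.28, limma adjusted p = 0.171) in TAI against control.

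Cd3g (ENSMUSG00000002033, chr9:44969572-44980431, minus strand), the gamma chain of CD3 and a near neighbour of Cd3e on chromosome 9, was at 2.18, 1.56 and 6.59 FPKM in control mice. The TAI mice had 0.893, 1.52 and 1.78 FPKM and the TAI/IVIg mice 0.919, 1.89 and 1.97 FPKM. As with Cd3e, control mouse 3 was far above the rest and the groups overlapped. It differed by -0.74 on the log2 scale (SE 0.38, adjusted p = 0.161) in TAI against control and -0.64 (SE 0.38, adjusted p = 0.193) in TAI/IVIg against control. Without control mouse 3 these values were -0.27 (adjusted p = 0.464) and -0.17 (adjusted p = 0.634).

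Cd8a (ENSMUSG00000053977, chr6:71373427-71379173, plus strand) encodes the CD8 alpha chain, which many intraepithelial T cells carry as a homodimer. Its levels were 2.47, 3.24 and 5.92 FPKM in control, 2.39, 2.47 and 2.31 FPKM in TAI and 1.90, 2.88 and 3.03 FPKM in TAI/IVIg mice. The TAI mice lay close together just under the lowest control mouse. Groups without overlap in this direction were found for 38.0% of all tested genes. The log2 fold change of -0.46 (SE 0.25, adjusted p = 0.175) did not pass the test, and it was -0.18 (adjusted p = 0.502) without control mouse 3. In TAI/IVIg against control it was -0.39 (adjusted p = 0.217), and it turned to 0.10 with library medians set equal and to 0.09 with quantile normalization.

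Trdc (ENSMUSG00000104876, chr14:54142851-54148868, plus strand) is the constant region of the T cell receptor delta chain and marks gamma-delta cells. It was at 0.878, 0.483 and 0.971 FPKM in control, 0.589, 0.890 and 0.539 FPKM in TAI and 0.619, 0.670 and 0.679 FPKM in TAI/IVIg mice, on 33 to 65 reads. The 3 groups overlapped throughout. Admitted by the mean filter, its log2 fold change was -0.08 (95% interval -0.42 to 0.25) in TAI against control and -0.09 (95% interval -0.43 to 0.24) in TAI/IVIg against control.

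The alpha-beta and gamma-delta receptor genes differed in how far control mouse 3 rose above the others. Trac, the alpha constant region, stood in it at 6.44 times the mean of control mice 1 and 2, Trbc1 at 5.44 times, Cd8b1 at 4.08 times and Cd3e at 3.50 times. Cd8a stood at 2.08 times and Trdc at 1.43 times. The gamma constant regions Tcrg-C1 and Tcrg-C2, which are near-identical copies whose reads may be split between them, stood at 1.01 and 1.17 times, as Gzmb did at 1.01 and Gzma at 0.938 times. Over the 9 mice, log2(FPKM + 1) of Cd3e correlated at 0.84 with the mean of the B cell markers, that of Trac at 0.94, that of Cd7 at 0.15 and that of Gzma at -0.72. These correlations describe 9 libraries that share their groups and totals. The heat map of B and T cell genes shows the same contrast.

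**Figure D2:**
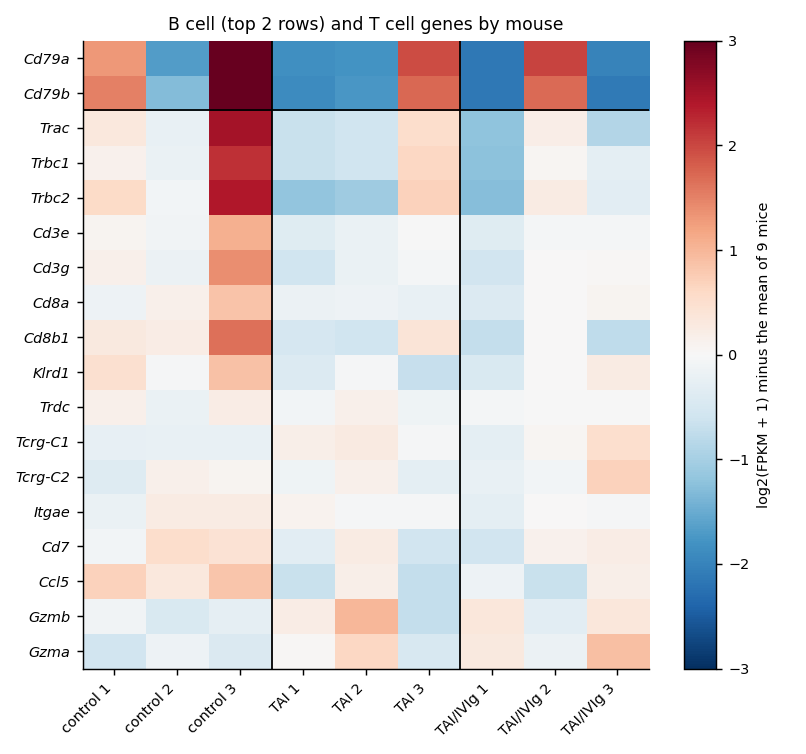
log2(FPKM + 1) of 2 B cell genes (top) and 16 T cell genes in each of the 9 mice, as the difference from the gene's mean over all mice (colour scale from -3 to 3, values beyond it drawn at its ends, black lines between groups). The alpha-beta receptor genes are highest in control mouse 3 with the B cell genes, and the gamma constant regions, Gzma and Gzmb are not.

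Of the 14 genes listed for the receptor complex and its coreceptors, 11 were tested. None was called in TAI against control, with 0 also at an unadjusted p under 0.05 and 0 called by voom, and 1 was called lower in TAI/IVIg against control. With library medians set equal 0 were lower and 1 higher in both comparisons (Tcrg-C1). Without the mouse of highest B cell markers in each group 1 was lower in TAI (Cd8b1) and 3 in TAI/IVIg (Cd8b1, Cd4 and Trac). Of all 13056 tested genes 1188 and 3697 were called lower in that setting. The gene called with all mice was Cd8b1, the CD8 beta chain, at 1.16, 1.03 and 4.48 FPKM in control and 0.0750, 0.754 and 0.0402 FPKM in TAI/IVIg mice. Its log2 fold change was -1.21 (SE 0.42, adjusted p = 0.043), and -0.74 (adjusted p = 0.127) without control mouse 3. Of the 20 signalling genes behind the receptor, 7 were tested. Lcp2, an adaptor of receptor signalling, was the only gene of that list called, at -0.62 (adjusted p = 0.041) in TAI and -0.92 (adjusted p = 0.0063) in TAI/IVIg against control, and the first was at -0.49 (adjusted p = 0.127) without control mouse 3. The kinase Lck was at 3.26, 2.22 and 14.7 FPKM in control and 0.598, 1.09 and 2.60 FPKM in TAI mice, with mouse 3 highest in both groups (log2 fold change -1.39, adjusted p = 0.091).

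Itgae (ENSMUSG00000005947, chr11:73090583-73147446, plus strand) encodes the integrin alpha chain of CD103, the E-cadherin receptor. Its levels were 0.716, 1.35 and 1.36 FPKM in control, 1.13, 0.925 and 0.945 FPKM in TAI and 0.631, 0.989 and 0.9502 FPKM in TAI/IVIg mice. The groups overlapped. The log2 fold change was -0.08 (95% interval -0.47 to 0.30) in TAI and -0.20 (95% interval -0.58 to 0.19) in TAI/IVIg against control, and both turned positive, to 0.20 and 0.29, with library medians set equal. Haspin lies within the gene on the opposite strand, at up to 4.09 FPKM, and the strand setting of the counting is not given in the sources used here.

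Its ligand E-cadherin (Cdh1) was at 226 to 259 FPKM in control, 230.3 to 292 FPKM in TAI and 219 to 303 FPKM in TAI/IVIg mice, with overlapping groups. Of the 18 residence and homing receptors 15 were tested, and 1 was lower in TAI against control. Ccr2, a chemokine receptor of monocytes and some T cells, fell in both comparisons, by 1.08 (adjusted p = 0.0044) and 1.199 (adjusted p = 0.0019) on the log2 scale. Itgb2, the beta chain of leukocyte integrins, and Cxcr6 were also lower in TAI/IVIg. The markers of macrophages and dendritic cells held 2 lower genes of 10 tested in each of these comparisons, Cd68 and Itgax, and 1 higher, Cd14, in TAI. The part of such cells in the Ccr2 and Itgb2 values was not tested.

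Cd7 (ENSMUSG00000025163, chr11:121036747-121039418, minus strand) is a surface glycoprotein of T and NK cells. It was at 3.96, 6.59 and 6.12 FPKM in control, 3.25, 5.26 and 2.56 FPKM in TAI and 2.55, 4.78 and 5.21 FPKM in TAI/IVIg mice. Mice of all groups overlapped, and the log2 fold changes were -0.50 (SE 0.29, adjusted p = 0.201) and -0.36 (SE 0.29, adjusted p = 0.321) against control. The second turned positive (0.13) with library medians set equal. An antisense gene, Gm11775, lies across Cd7 with up to 18.7 FPKM, and reads from it could not be told apart from those of Cd7 if strand was not used.

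Of the 8 tested genes the granzymes alone had a positive fold change against control, and neither passed the test. Gzma (ENSMUSG00000023132, chr13:113093825-113100981, minus strand), a granule protease with tryptase activity, was at 19.5, 26.5 and 21.6 FPKM in control mice. It was at 30.5, 46.6 and 20.9 FPKM in TAI and at 36.4, 26.4 and 56.3 FPKM in TAI/IVIg mice. In each irradiated group 2 mice lay above all control mice and the third lay among them. The reads ran from 341 to 950. Its log2 fold change was 0.45 (SE 0.32, adjusted p = 0.299) in TAI and 0.74 (SE 0.32, adjusted p = 0.092) in TAI/IVIg against control. The second passed the test with library medians set equal (1.23, adjusted p = 0.027), with quantile normalization (1.01, adjusted p = 0.041), with voom and median-ratio library sizes (1.23, adjusted p = 0.027) and without TAI/IVIg mouse 2 (0.99, adjusted p = 0.040).

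Gzmb (ENSMUSG00000015437, chr14:56258838-56262260, minus strand) cleaves after aspartate and triggers apoptosis in target cells. Its levels were 10.98, 8.39 and 9.81 FPKM in control, 14.1, 24.7 and 6.87 FPKM in TAI and 15.3, 9.43 and 15.3 FPKM in TAI/IVIg mice. The lowest value of all 9 mice and the highest were both in TAI mice. The log2 fold change was 0.44 (SE 0.38, adjusted p = 0.384) in TAI and 0.40 (SE 0.38, adjusted p = 0.407) in TAI/IVIg against control. TAI mouse 3 and TAI/IVIg mouse 2, the mice with the most B cell marker RNA in their groups, were lowest in their groups for both granzymes. Control mouse 3, with the most in its group, lay between the other control mice for both. Without the mouse of highest B cell markers in each group, Gzmb was at 0.89 (adjusted p = 0.082) and 0.62 (adjusted p = 0.133), and Gzma at 0.70 (adjusted p = 0.166) and 0.96 (adjusted p = 0.059). With the B cell marker mean as a covariate the Gzmb values were 0.22 and 0.16 and the Gzma values 0.20 and 0.47.

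Perforin and the other granule genes were described beside the granzymes. Prf1, the perforin gene, was below the filter at 0.289, 0.438 and 0.760 FPKM in control, 0.203, 0.214 and 0.297 FPKM in TAI and 0.151, 0.319 and 0.254 FPKM in TAI/IVIg mice, and its groups overlapped. Of 17 granule and death ligand genes 12 were tested, with 1 higher and 1 lower in TAI against control. Unc13d, which primes granules for release, fell by 0.90 on the log2 scale (adjusted p = 0.034) in TAI and by 1.07 (adjusted p = 0.013) in TAI/IVIg. The first was at -0.58 (limma adjusted p = 0.081) without control mouse 3 and at -0.60 (adjusted p = 0.120) without the mice of highest B cell markers, and its adjusted p was 0.051 with a replicate block. Lamp1, a lysosomal membrane protein of most cells, rose from 162 to 181 FPKM in control to 229 to 311 FPKM in TAI mice (log2 fold change 0.65, adjusted p = 0.010). It was also higher in TAI/IVIg, with Serpinb9 and Rab27a lower. That list, with 1 higher and 3 lower in TAI/IVIg against control, had 3 higher and 0 lower with library medians set equal and 2 higher and 0 lower with quantile normalization.

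Ccl5 fell in both irradiated groups. Ccl5 (ENSMUSG00000035042, chr11:83525778-83530518, minus strand), the chemokine RANTES that memory and intraepithelial CD8 cells keep as stored transcript, was at 21.8, 16.5 and 24.0 FPKM in control mice. It was at 7.78, 14.8 and 7.59 FPKM in TAI and at 11.6, 7.91 and 14.9 FPKM in TAI/IVIg mice. All 6 irradiated mice lay below all 3 control mice, as 38.0% of all tested genes did in TAI and 44.3% in TAI/IVIg, on 128 to 240 reads against 280 to 399. The mean was 0.485 times the control mean in TAI and 0.553 times in TAI/IVIg. The log2 fold change was -1.02 (SE 0.29, adjusted p = 0.025) and -0.83 (SE 0.29, adjusted p = 0.043).

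The Ccl5 calls were near the threshold. Same-numbered control and TAI mice deviated together, and with a replicate block Ccl5 stayed called in TAI (adjusted p = 0.047). With library medians set equal it was at -0.73 (adjusted p = 0.105) in TAI and -0.33 (adjusted p = 0.435) in TAI/IVIg. Without control mouse 3 the values were -0.91 (adjusted p = 0.084) and -0.72 (adjusted p = 0.127). Without the mouse of highest B cell markers in each group they were -0.76 (adjusted p = 0.151) and -0.49 (adjusted p = 0.264). Ccl5 remained below zero against control in both groups under every alternative run.

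Among the 12 T cell chemokines and cytokines, 7 were tested and 2 were lower in each irradiated group. Beside Ccl5 this was Xcl1, the lymphotactin made by NK and CD8 cells. Xcl1 was at 1.65, 3.68 and 1.77 FPKM in control, 0.781, 0.117 and 0.629 FPKM in TAI and 0.319, 0.338 and 0.228 FPKM in TAI/IVIg mice. All control mice were above all irradiated mice (log2 fold changes -1.13 and -1.33, adjusted p = 0.010 and 0.0035). The same held for 38.0% of all tested genes in TAI and 44.3% in TAI/IVIg. The reads behind Xcl1 were 15 to 34 in control and 1 to 7 in irradiated mice, and without control mouse 3 the limma adjusted p was 0.021 in TAI and 0.0092 in TAI/IVIg.

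Klrd1 (ENSMUSG00000030165, chr6:129591782-129598775, plus strand) encodes CD94, the partner of the NKG2 receptors on NK and CD8 cells. It was at 4.18, 2.65 and 5.86 FPKM in control, 1.82, 2.64 and 1.33 FPKM in TAI and 1.74, 2.76 and 3.44 FPKM in TAI/IVIg mice. The TAI mice were below the control mice, with TAI mouse 2 just under control mouse 2, and the TAI/IVIg mice overlapped them. In log2 terms it was -0.81 (SE 0.28, adjusted p = 0.049) in TAI and -0.50 (SE 0.28, adjusted p = 0.162) in TAI/IVIg against control. With a replicate block the first was no longer called (adjusted p = 0.070). This left 1 of the 8 genes called in TAI against control, beside 3672 of all 13056 tested genes called lower. Without control mouse 3 Klrd1 was at -0.59 (adjusted p = 0.153). Without the mouse of highest B cell markers in each group it was at -0.44 (adjusted p = 0.348). The reads behind Klrd1 ran from 31 to 130.

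Of 19 NK receptor genes listed, 5 were tested, and 3 were lower in TAI against control, Klrd1, Klrb1b and Tyrobp. With library medians set equal 1 of the 5 was called, and without control mouse 3 none was. Of all 13056 tested genes 1823 and 2081 were called lower in these fits. Klrb1b, an inhibitory lectin-like receptor of NK cells with close relatives in the same family, was at 2.56, 1.30 and 2.70 FPKM in control, 0.550, 0.496 and 0.541 FPKM in TAI and 0.200, 0.925 and 0.107 FPKM in TAI/IVIg mice. All control mice were above all irradiated mice (log2 fold changes -1.03 and -1.19, adjusted p = 0.014 and 0.0055), as for 38.0% of all tested genes in TAI and 44.3% in TAI/IVIg. Tyrobp, the adaptor DAP12 of NK and myeloid receptors, was at 20.1 to 21.2 FPKM in control, 11.7 to 14.1 FPKM in TAI and 8.58 to 15.6 FPKM in TAI/IVIg mice. Its fall (-0.63, adjusted p = 0.031) was at -0.34 (adjusted p = 0.123) with library medians set equal. Without control mouse 3 the adjusted p in TAI was 0.053 for Klrb1b and 0.078 for Tyrobp. In TAI/IVIg against control, Klrb1b, Tyrobp and Fcer1g were the 3 called lower. Ncr1, the NK receptor NKp46, was below the filter, at 0.413 to 0.661 FPKM in control and 0.0379 to 0.214 FPKM in irradiated mice, the latter on 1 to 6 reads. Prf1 and Ncr1, and also Cd4, Trac, Tcrg-C1, Tcrg-C2 and Il18, were named after their values were seen.

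**Figure D3:**
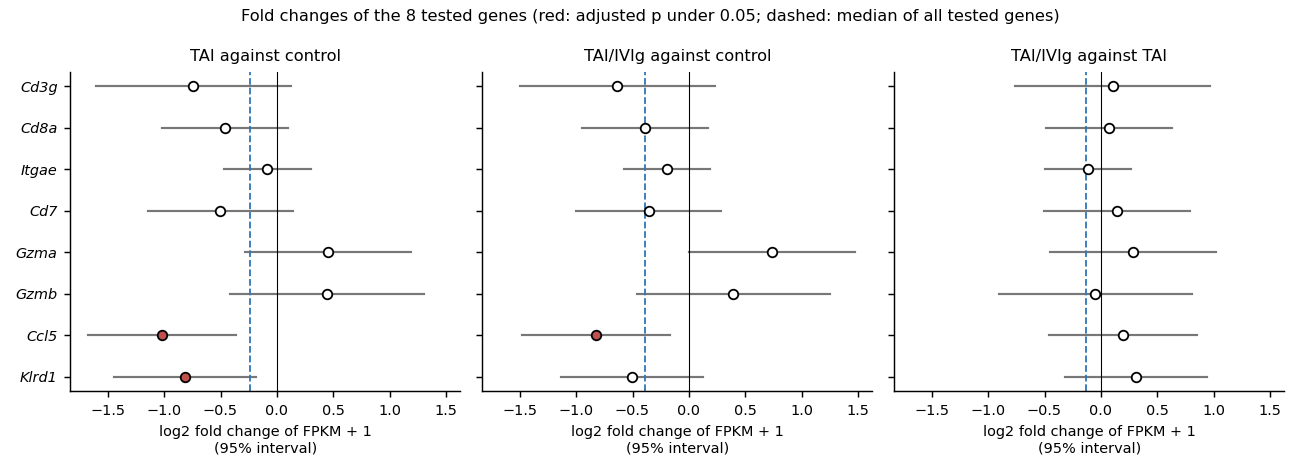
log2 fold change of FPKM + 1 (x axes) with its 95% limma interval for the 8 tested lymphocyte genes in the 3 comparisons, 3 mice a group (filled red where the adjusted p is under 0.05, dashed line at the median of all tested genes). Ccl5 and Klrd1 are called in TAI against control, Ccl5 in TAI/IVIg against control and none in TAI/IVIg against TAI.

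The irradiated mice with and without IVIg were compared to ask whether the treatment moved these genes. None of the 8 differed at the threshold, and the widest intervals leave room for changes in either direction. Gzma was at 0.28 (95% interval -0.45 to 1.02), Gzmb at -0.05 (95% interval -0.91 to 0.81) and Klrd1 at 0.31 (95% interval -0.32 to 0.94). Ccl5 was at 0.19 (95% interval -0.46 to 0.85), Cd7 at 0.14 (95% interval -0.50 to 0.79) and Cd3g at 0.10 (95% interval -0.76 to 0.97). Cd8a was at 0.07 (95% interval -0.49 to 0.63) and Itgae at -0.11 (95% interval -0.49 to 0.27). The smallest adjusted p was 0.618, for Klrd1. In every list of lymphocyte genes 0 genes were called in this comparison.

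Levels were also set against each other within a mouse, which removes the scaling of the library. The ratio of Gzma to Ccl5 was 0.896, 1.61 and 0.899 in the control mice, 3.92, 3.14 and 2.75 in the TAI mice and 3.13, 3.34 and 3.78 in the TAI/IVIg mice. All 6 irradiated mice were above all control mice. The means were 1.13 ± 0.410, 3.27 ± 0.598 and 3.42 ± 0.330 (SD, n = 3). The ratio of Gzmb to Ccl5 was 0.505, 0.509 and 0.409 in control, 1.82, 1.66 and 0.905 in TAI and 1.31, 1.19 and 1.03 in TAI/IVIg mice, again without overlap. A two-sided exact permutation test gave p = 0.1 for each of these against control, the smallest that 3 mice against 3 allow. Ccl5 was chosen as the denominator after its values were seen. Its own fall raises both ratios, so these p-values are no test of the granzymes. As levels, Gzmb was above Ccl5 in 0 of 3 control, 2 of 3 TAI and 3 of 3 TAI/IVIg mice.

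With other denominators the groups overlapped in some ratios and not in others. Set against the mean of the pan-leukocyte markers on the log2(FPKM + 1) scale, both granzymes overlapped control in both irradiated groups. Their ratios to Cd3g overlapped as well. Gzma to Cd7 averaged 4.16 ± 0.707 in control mice, against 8.80 ± 0.634 with TAI and 10.2 ± 4.40 with TAI/IVIg (SD, n = 3), without overlap. Gzma to Cd8a did not overlap either, at 6.58 ± 2.55, 13.6 ± 4.97 and 15.7 ± 5.61 (SD, n = 3). Gzma to Klrd1 was at 6.12 ± 3.41, 16.7 ± 0.967 and 15.6 ± 5.73 (SD, n = 3), and TAI/IVIg mouse 2 (9.59) fell below control mouse 2 (10.02). Gzma to Cd3e was at 21.3, 38.3 and 7.66 in control, 73.6, 79.3 and 26.3 in TAI and 86.2, 35.3 and 75.5 in TAI/IVIg mice. In that ratio the mouse with the most B cell marker RNA was lowest in each group, and the groups overlapped. Gzmb to Cd3e was at 11.98, 12.1 and 3.48 in control, 34.1, 42.0 and 8.67 in TAI and 36.2, 12.6 and 20.5 in TAI/IVIg mice. This ratio overlapped control in TAI and not in TAI/IVIg (two-sided exact permutation p = 0.1). As a difference of log2(FPKM + 1) values it overlapped in both (two-sided exact permutation p = 0.2 in TAI/IVIg). Gzmb to Klrd1 did not overlap (control 2.49 ± 0.756, TAI 7.43 ± 2.11, TAI/IVIg 5.56 ± 2.86, SD, n = 3), and Gzmb to Cd8a and to Cd7 did. The mean of Klrd1 was 0.456 times its control mean in TAI and 0.625 times in TAI/IVIg. That of Cd8a was 0.616 and 0.672 times, and that of Cd7 0.664 and 0.752 times. Lower denominators raise the ratios, so these ratios are no test of the granzymes. How many other gene pairs separate in this way was not tested. The plot of granzyme ratios by mouse shows the 10 ratios.

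**Figure D4:**
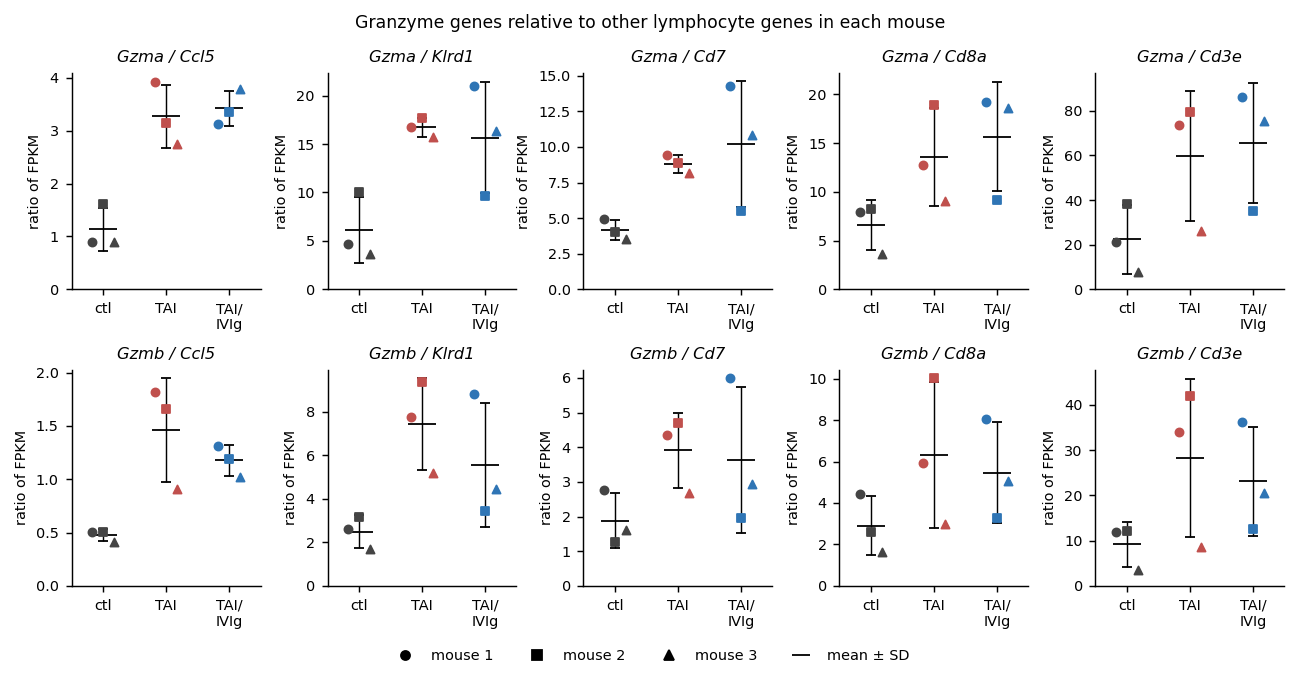
Ratio of the FPKM of Gzma (top) and Gzmb (bottom) to that of 5 other lymphocyte genes in each mouse (y axes, linear from 0, a scale per panel), with the mean ± SD of 3. Ratios to Ccl5 lie higher in all 6 irradiated mice than in all 3 control mice, and the ratio of Gzma to Cd3e overlaps.

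Over the 9 mice, log2(FPKM + 1) of Cd3e and Cd3g correlated at 0.99, Cd3e and Cd8a at 0.91, Ccl5 and Klrd1 at 0.84 and Gzma and Gzmb at 0.79. Gzma and Cd3e correlated at -0.44, and at -0.16 after each group mean was subtracted. Gzmb and Ccl5 correlated at 0.12, and at 0.81 after the group means were subtracted, so within groups mice high in one were high in the other. Gzma and Ccl5 went from -0.07 to 0.75 in the same way. Each gene was also set against the mean of the other 9, each standardized. Klrd1 was nearest to that mean at 0.88, while Gzmb was at 0.01 and Gzma at -0.09. After the group means were subtracted these were 0.88, 0.37 and 0.43. All of these describe 9 mice that share 3 groups and carry no test.

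The genes outside the 10 most like their mean were mostly not lymphocyte genes. The highest Pearson r over the 9 mice was 0.96 for Snord8, followed by Zfp445 and Utp23 at 0.94 and 0.93. The other 7 were 4732440D04Rik, Vrk3, Zfc3h1, Tmf1, Gm17491, Pigm and Igkc, with r from 0.91 to 0.93. Igkc, the kappa light chain constant region of B lineage cells, was the immune gene among them.

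A few of the epithelial genes that act on these lymphocytes were called. Of 17 listed 15 were tested, with 1 higher (Il15) and 2 lower (Il18 and Ccl25) in TAI against control, and these with Btnl2 in TAI/IVIg against control. The latter count of 2 higher and 2 lower was 7 higher and 1 lower with library medians set equal, and 7 higher and 2 lower with voom and median-ratio library sizes. Il15, which sustains intraepithelial and NK cells, was at 4.05, 5.11 and 3.35 FPKM in control, 12.6, 13.0 and 14.4 FPKM in TAI and 21.5, 13.4 and 13.3 FPKM in TAI/IVIg mice. Every irradiated mouse was above every control mouse, and the share of all tested genes without overlap in this direction is not given here. Of all tested genes 8.81% were called higher in TAI and 9.06% in TAI/IVIg. The log2 fold change was 1.48 (SE 0.20, adjusted p = 0.0016) in TAI and 1.70 (SE 0.20, adjusted p = 5.9e-04) in TAI/IVIg against control.

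Ccl25, the ligand of the gut homing receptor CCR9, was at 89.5, 108 and 75.3 FPKM in control, 27.7, 32.8 and 35.6 FPKM in TAI and 29.2, 48.9 and 45.8 FPKM in TAI/IVIg mice. It fell by 1.47 (SE 0.22, adjusted p = 0.0020) and 1.14 (SE 0.22, adjusted p = 0.0035) on the log2 scale, the second at -0.65 (adjusted p = 0.061) with library medians set equal. Il18, a cytokine that enterocytes hold in store, was at 291, 208 and 170.0 FPKM in control and 45.1, 37.5 and 52.3 FPKM in TAI mice. In TAI/IVIg mice it was at 26.0, 81.6 and 65.5 FPKM. It fell by 2.26 (SE 0.39, adjusted p = 0.0036) and 2.05 (SE 0.39, adjusted p = 0.0033). Il18rap, a chain of its receptor, was also lower in both groups (-0.58 and -0.79, adjusted p = 0.018 and 0.0036).

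Btnl6, a butyrophilin-like molecule of the family that selects gut gamma-delta cells, was at 188 to 327 FPKM in control, 276 to 327 FPKM in TAI and 268 to 312 FPKM in TAI/IVIg mice. Its log2 fold changes were 0.28 (adjusted p = 0.306) and 0.29 (adjusted p = 0.257), and the second passed with library medians set equal (0.79, adjusted p = 0.046). Btnl2 was called higher in TAI/IVIg against control (0.57, adjusted p = 0.012). The Btnl genes are close copies of each other and their reads may be split between them. The plot of epithelial genes by mouse shows 5 of them.

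**Figure D5:**
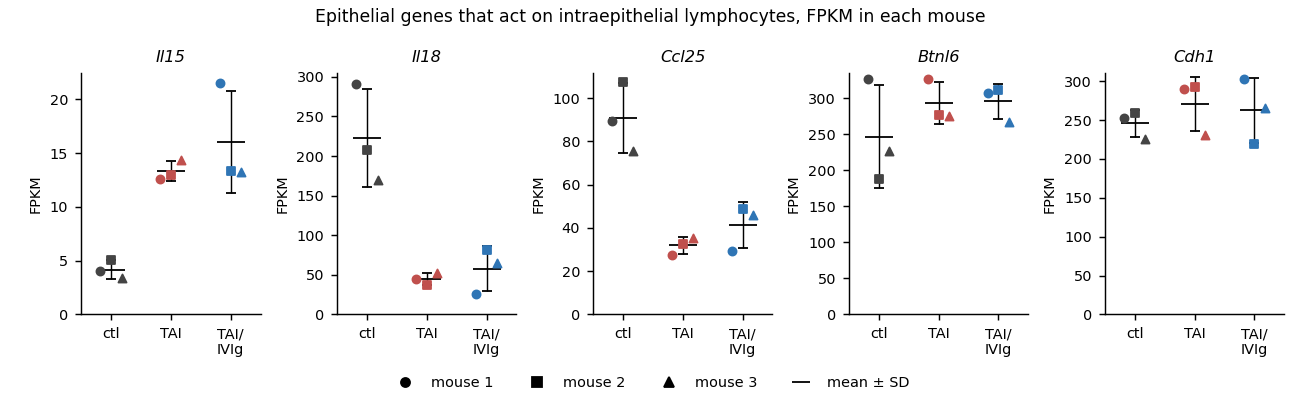
FPKM of Il15, Il18, Ccl25, Btnl6 and Cdh1 (y axes, linear from 0, a scale per gene) in each mouse of the 3 groups, with the mean ± SD of 3. Il15 is higher and Il18 and Ccl25 are lower in all 6 irradiated mice than in all 3 control mice, while Btnl6 and Cdh1 overlap.

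Regulators and receptors of lymphocytes gave a mixed picture. Of 18 transcription factors 11 were tested, with Prdm1 higher and Id3 and Bcl11b lower in both irradiated groups against control. Prdm1, which encodes BLIMP-1 of effector lymphocytes and also of gut epithelium, was at 5.44, 3.98 and 4.07 FPKM in control, 17.4, 13.1 and 15.6 FPKM in TAI and 22.9, 7.18 and 8.89 FPKM in TAI/IVIg mice (log2 fold changes 1.58 and 1.19, adjusted p = 0.0099 and 0.022), the second at adjusted p = 0.065 without control mouse 3. Id3, an inhibitor of E proteins, fell by 0.81 (adjusted p = 0.0027) in TAI, and was at -0.52 (adjusted p = 0.083) there with library medians set equal. Its value in TAI/IVIg turned from -0.44 to 0.05 with library medians set equal. Of 13 cytokine receptors 8 were tested and Il18rap was the only one lower in TAI, with Il18r1 and Il10ra lower as well in TAI/IVIg. Of 9 inhibitory receptors 7 were tested, and Lag3 and Lair1 were lower in both comparisons, joined by Havcr2 in TAI/IVIg. In TAI the adjusted p of Lag3 and Lair1 was 0.091 and 0.089 without control mouse 3, and that of Lag3 was 0.0503 with a replicate block. With library medians set equal 0 genes of these last 2 lists were called.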

How the data were processed

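The authors deposited FPKM values per gene and mouse, with no pooling. The submitters' processing notes name FastQC, Trimmomatic, STAR, featureCounts and DESeq2 and the builds mm10 and GRCm38, and the strand setting and annotation are not given in the sources used here. All 31685 genes gave whole reads (100% of genes, tolerance 0.01 reads), and the implied lengths of 30616 genes (96.6%) equalled exon lengths in GENCODE M21, whose GRCm38 coordinates are printed. All 9 columns were used and 0 were left out.

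A linear model for each gene was fitted to log2(FPKM + 1) by limma (version 3.58.1, R version 4.3.3). It had the group as its term, used all 9 mice, took a trended empirical Bayes step and kept genes at 1 FPKM in at least 3 mice. Adjusted p-values under 0.05 were called. The steps were also run on simulated data, which held no difference in B cell content between mice, and the outcome is not given here. Ratios of single values used exact permutation tests (scipy 1.17.1). Alternatives were another pseudocount (0.1), other filters, scalings and fits, voom on the recovered reads, a replicate block and each mouse left out. A filter on a mean of at least 0.5 FPKM and fits that handle the B cell markers were chosen after seeing the data. So were ratio denominators other than Cd3e and the pan-leukocyte mean. Same-numbered control and TAI mice departed from their group means together (r = 0.271, 0.241 and 0.308 across genes), so the block is given beside TAI against control. For same-numbered pairs with a TAI/IVIg mouse r ran from -0.296 to 0.201. Differently numbered control and TAI mice had r from -0.336 to 0.146. Control mouse 3 and TAI/IVIg mouse 2 had r = 0.408, and both, like TAI mouse 3, had the most B cell marker RNA in their groups.

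The 10 genes and the 18 other lists, written by hand, were chosen with earlier results of these data known. Named from each list were the 2 genes of highest mean FPKM and the 2 of smallest p in TAI against control. Printed counts of 5 or fewer are named whole, except for some from alternative fits. Some genes that the rule names are not reported here. Counting error is the only error the read numbers cover.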

Additional observations from a re-analysis of the deposited data

How the results depend on the processing

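The calls of the 8 tested genes depended on the processing. Of the 2 called lower in TAI against control, 1 was left with a pseudocount of 0.1, a mean of at least 5 or of at least 0.5 FPKM, only the 6 mice compared, the replicate block, voom or the B cell markers as a covariate. In that order the genes called lower were 3154, 2231 of 6398, 3464 of 14742, 3482, 3672, 3308 and 2392, of 13056 where no total is given. There were 0 with no filter, library medians set equal, quantile normalization, voom with median-ratio library sizes, or the highest B cell library of each group left out. Fewer of all genes were called lower in these settings too, 2762 of 31685, then 1823, 2284, 1913 and 1188 of 13056, against 3411. Leaving out each mouse in turn gave 0 to 2, with 0 without control mouse 1, control mouse 3, TAI mouse 1 or TAI mouse 3, and 1 without TAI/IVIg mouse 2 or 3. Over these fits 1643 to 3695 of all tested genes were called lower. The 1 called lower in TAI/IVIg against control (Ccl5) became 0 in the same 5 settings, with the replicate block (adjusted p = 0.074) and with the B cell covariate. Of all genes 4650, 1894, 2253, 2379 and 3697 were called lower in the 5, 4984 with the block and 3925 with the covariate. Each mouse left out in turn gave 0 to 1, with 0 without control mouse 1 or 3, TAI mouse 1, or TAI/IVIg mouse 1 or 2. Over these fits 3584 to 4989 of all tested genes were called lower. In that comparison 1 gene, Gzma, was called higher instead of 0 with medians set equal, quantile normalization, voom with median-ratio sizes and without TAI/IVIg mouse 2 (0 to 1 over the mice). Of all tested genes 2880, 2407, 2419 and 1066 were called higher in these fits, in that order. The causes were not tested. Between TAI/IVIg and TAI 0 of the lymphocyte genes were called under every alternative run. Of all genes 4 were called lower with no filter and 3 with the replicate block.

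Among the list genes, the called Id3 value in TAI/IVIg against control turned with library medians set equal, as given above. Some directions of the tested lymphocyte genes turned as well, none of them of a called value. For Itgae against control they became 0.20 (TAI) and 0.29 (TAI/IVIg) with medians set equal, 0.0017 and 0.17 with quantile normalization, 0.15 and 0.087 with voom and median-ratio sizes, and 0.014 (TAI) without the highest B cell libraries. Against control in TAI/IVIg, Cd8a became 0.10 and 0.087 with medians set equal and quantile normalization, and Cd7 became 0.13, 0.12 and 0.028 in the 3 rescaled fits. In TAI/IVIg against TAI, Itgae became 0.091 and 0.17 with medians set equal and quantile normalization, and Gzmb 0.15, 0.030 and 0.14 in the 3 rescaled fits. Without the highest B cell libraries Cd8a was at -0.0044 and Cd7 at -0.13. Leaving out each mouse in turn, Cd3g ran from -0.057 (without TAI mouse 1) to 0.31, and was at -0.0072 without TAI/IVIg mouse 3. Without that mouse Cd8a was at its lowest of -0.015 (highest 0.22), Ccl5 at -8.74e-05 (highest 0.48) and Cd7 at -0.0086. Cd7 ran from -0.034 (without TAI mouse 3) to 0.39, and Gzmb from -0.49 to 0.36 (without TAI mouse 2), with 0.17 without TAI/IVIg mouse 2. Among the list genes in TAI against control the replicate block also ended the calls of Unc13d and Lag3 and added Nkg7, Itgam and Krt20. For TAI/IVIg against control it ended those of Epcam, Il10ra and Serpinb9 and added Iglc1, Itgam, Lat, Nkg7 and Selplg, though those mice do not pair. Reads of 29 to 199 behind Cd3e, 33 to 65 behind Trdc and 31 to 130 behind Klrd1 limit the precision of the low genes.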
